A study of Mus musculus with 6 samples.

Results

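A set of 9 abundant long non-coding RNAs of the adult mouse brain was described across 6 hippocampal RNA-seq libraries, namely Malat1, Neat1, Meg3, Rian, Mirg, Miat, Snhg11, Peg13 and Kcnq1ot1. They were chosen by gene symbol, with no measured value in the rule, and all 9 were found once each among the 20620 genes of the deposited count table. All 9 passed the filter on low counts. The study asks what a Braf Q241R allele, a change found in cardio-facio-cutaneous syndrome, does in the hippocampus when it is expressed in mature excitatory neurons. All animals were male, on a C57BL/6J background, and each library came from 1 mouse. The 3 control mice carried Braf Q241R Neo/+ with no Cre named in the label, and were 32, 32 and 31 weeks old (replicates 1 to 3). The 3 mice called n-Braf here carried Braf Q241R/+ ;CaMKII-Cre and were 33, 32 and 34 weeks old. Both groups therefore carry the mutant allele in some form, and presence of Cre and loss of the Neo cassette differ together and cannot be told apart. The CaMKII promoter drives Cre in excitatory neurons, whereas the RNA came from whole hippocampal tissue, so other cells with an unrecombined allele contribute to each value.

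Long non-coding RNAs are transcripts that are not translated into a long protein, and several of them are among the most abundant RNAs of neurons. Malat1 is retained in the nucleus and concentrates in nuclear speckles, bodies rich in splicing factors, and its neighbour Neat1 forms the scaffold of paraspeckles, another nuclear body. Meg3, Rian and Mirg lie in a row on the maternally expressed strand of the imprinted Dlk1-Dio3 domain and act as hosts of small nucleolar RNAs and microRNAs, while Peg13 and Kcnq1ot1 are expressed from the paternal allele of other imprinted domains. Kcnq1ot1 silences its neighbours in cis in the placenta and embryo, Miat is a nuclear RNA of neurons and retina that binds splicing factors, and Snhg11 is a neuronal host gene of small nucleolar RNAs.

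The promoters of Meg3 and Malat1 are shown because CREB, which binds the cAMP response element, can be phosphorylated by kinases downstream of the pathway that BRAF feeds. The capitals mark matches, on either strand, to the whole element TGACGTCA in Meg3 and to its half-site TGACG in Malat1, where a match on the other strand reads CGTCA. Each window runs from 250 bases before to 50 bases after the RefSeq start on GRCm38.p6, 5′ to 3′ along the gene: chr12:109540746-109541045 on the plus strand for Meg3 and chr19:5802623-5802922 on the minus strand for Malat1.
Meg3 promoter: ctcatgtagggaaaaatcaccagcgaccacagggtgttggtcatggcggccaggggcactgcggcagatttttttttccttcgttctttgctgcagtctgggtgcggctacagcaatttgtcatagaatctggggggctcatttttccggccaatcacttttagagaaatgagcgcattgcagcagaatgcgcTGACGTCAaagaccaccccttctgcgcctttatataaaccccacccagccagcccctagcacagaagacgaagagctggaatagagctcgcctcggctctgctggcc
Malat1 promoter: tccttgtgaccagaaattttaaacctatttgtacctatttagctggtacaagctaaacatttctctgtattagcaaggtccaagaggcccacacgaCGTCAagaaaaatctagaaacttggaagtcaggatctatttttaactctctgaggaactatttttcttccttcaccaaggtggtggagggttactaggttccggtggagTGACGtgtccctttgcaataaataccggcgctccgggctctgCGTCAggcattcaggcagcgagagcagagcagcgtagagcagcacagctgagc

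The whole element lay 57 bases before the Meg3 start of the printed window. It occurred in 588 of 32851 RefSeq promoter windows of this length (1.79%). The half-site, which the whole element contains, occurred in 20.8% of the windows and in the printed Meg3 window, the Malat1 window and the Kcnq1ot1 window. Another Meg3 start has its window at chr12:109545148-109545447, with 1 CpG and neither the whole element nor the half-site. Neither the ETS site CCGGAAGT (3.89% of windows) nor the EGR site GCGTGGGCG (0.612%) was found in the 8 windows of the 7 matched members. Neat1 and Peg13 were not matched. CpG content separated the windows, from 25 CpGs for Miat and 21 for Snhg11, against a median of 7 over all windows, to 0 for Rian. A match describes letters in the window and was not tested for binding.

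Within the annotated bounds and on the strand of the 3 RNAs of the Dlk1-Dio3 domain, RefSeq places 18 microRNA hairpins: 1 in Meg3, 3 in Rian and 14 in Mirg. The same bounds hold 35 mature sequences with 34 different seeds, the stretch of bases 2 to 8 that pairs with targets. Mature sequences were counted by position and not matched to these hairpins, and Meg3 holds 3 of them beside its 1 hairpin. The hairpins that lie wholly within an annotated exon were 1 in Meg3, 0 in Rian and 4 in Mirg. The others do not lie wholly within an annotated exon of their host. A few mature sequences are printed, with the seed in capitals, to show what the 3 host loci hold, including the only pair that shares a seed.
mmu-miR-770-5p (Meg3): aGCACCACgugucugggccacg
mmu-miR-370-3p (Rian): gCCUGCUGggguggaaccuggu
mmu-miR-134-5p (Mirg): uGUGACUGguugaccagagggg
mmu-miR-485-3p (Mirg): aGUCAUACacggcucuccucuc
mmu-miR-453 (Mirg): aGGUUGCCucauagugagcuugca
mmu-miR-496a-5p (Mirg): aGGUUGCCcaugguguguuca
The pair with one seed is miR-453 and miR-496a-5p, both within Mirg. Mature microRNAs were not analysed here, and the values that follow are those of the host transcripts.

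The libraries held between 25227112 and 31832245 estimated counts each. The transcript of the targeted gene, Braf, was read at 116, 123 and 116 CPM (counts scaled to a common library size by the TMM method) in controls 1 to 3 and at 185, 184 and 205 CPM in n-Braf 1 to 3, which is 0.69 higher on the log2 scale (SE 0.07) at an adjusted p of 0.0533 by edgeR's quasi-likelihood test. Gene counts do not show which allele was read, so this does not check recombination directly. Control 1 stood apart in its share of 18S ribosomal RNA, 3.26% of counts against 0.534% to 0.782% in the other 5 libraries. Controls 1 and 2 also held high levels of the 14 choroid plexus markers tested, whose summed level was 3671 and 2068 CPM against 93.0 to 143 CPM in the other 4. Results that turn on these libraries are given with and without them.

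Summed over the 9 RNAs, the share of all counts was 2.65%, 3.11% and 3.04% in controls 1 to 3 and 2.83%, 3.06% and 3.22% in n-Braf 1 to 3. The means were 2.93% ± 0.25 and 3.04% ± 0.19 (SD, n = 3 each), so the groups overlapped. The 9 RNAs made up 58.0% to 62.7% of the counts of all 4145 long non-coding RNA genes in the table. Malat1 alone took 2.03% of counts in control 1 (95% Clopper-Pearson interval 2.03% to 2.04%) and 2.60% in n-Braf 3 (2.59% to 2.60%). These intervals cover counting error only, and the spread between mice was far wider.

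**Figure D1:**
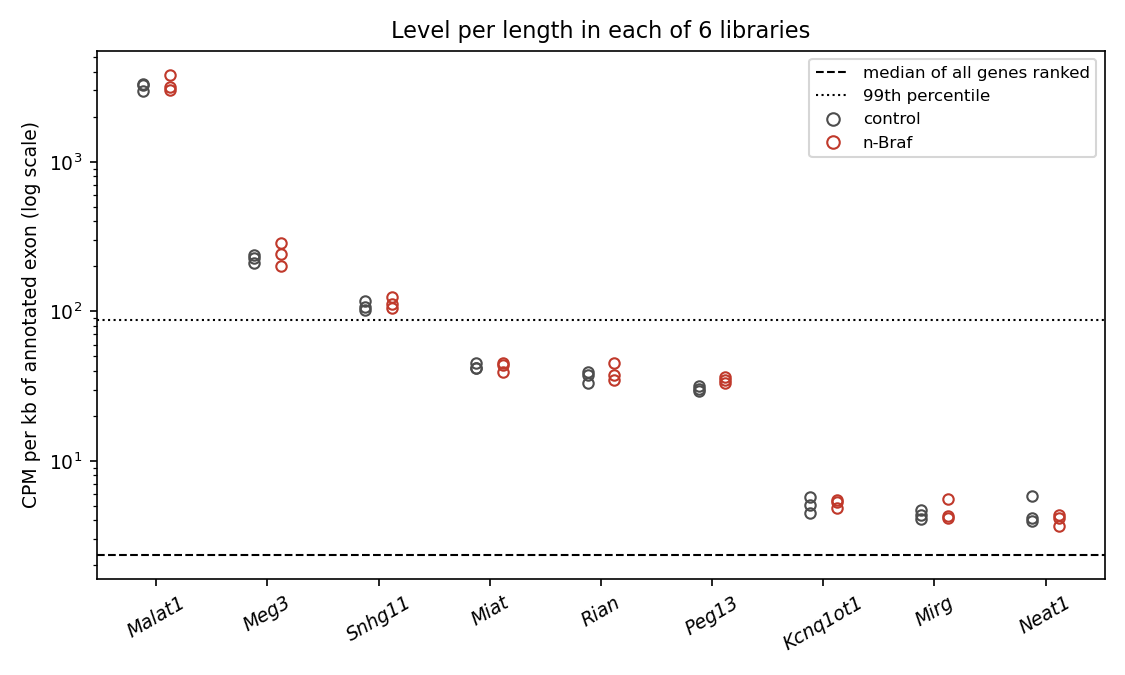
Level of each RNA per kilobase of annotated exon, in CPM per kb on a log scale, with 1 circle per library (control in grey, n-Braf in red). The dashed and dotted lines are the median (2.36) and 99th percentile (87.1) of 20110 genes. Malat1, Meg3 and Snhg11 lie above the 99th percentile, and Kcnq1ot1, Mirg and Neat1, the lowest of the 9, lie between 3.65 and 5.80, above the median.

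Compared per length, the 9 RNAs ran from rank 7 to rank 7107 of 20110 genes, and all lay above the median gene. Malat1 led with a level of 3266 CPM per kb of annotated exon ± 299 (SD over 6 libraries). Meg3 followed at 234 ± 29.4 CPM per kb and Snhg11 at 111 ± 8.70. These 3 levels were separated from each other, and from the next, in all 6 libraries. Miat (42.9 ± 2.29 CPM per kb), Rian (37.9 ± 4.30) and Peg13 (32.5 ± 2.73) formed a middle group in which neighbours in the order had overlapping ranges. Kcnq1ot1 (5.14 ± 0.44 CPM per kb), Mirg (4.51 ± 0.54) and Neat1 (4.35 ± 0.75) also overlapped as neighbours in the order, at ranks 6325 to 7107, above the median gene at 2.36 CPM per kb. By level per length the word abundant thus describes these 3 less well than the other 6, and tissue RNA cannot show whether the reads came from neurons. Kcnq1ot1 is annotated as a single exon of 93092 bases, which is why 473 CPM in controls became a low level per kb. With the length of the longest annotated transcript in place of all exons, Rian rose from 37.9 to 85.5 CPM per kb and stood above Miat at 43.5. Mirg rose from 4.51 to 8.61 and stood above Kcnq1ot1, which stayed at 5.14. Neat1, with 4 annotated transcripts, was divided by 20771 bases under both choices, so its place in the order depends on that length.

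**Figure D2:**
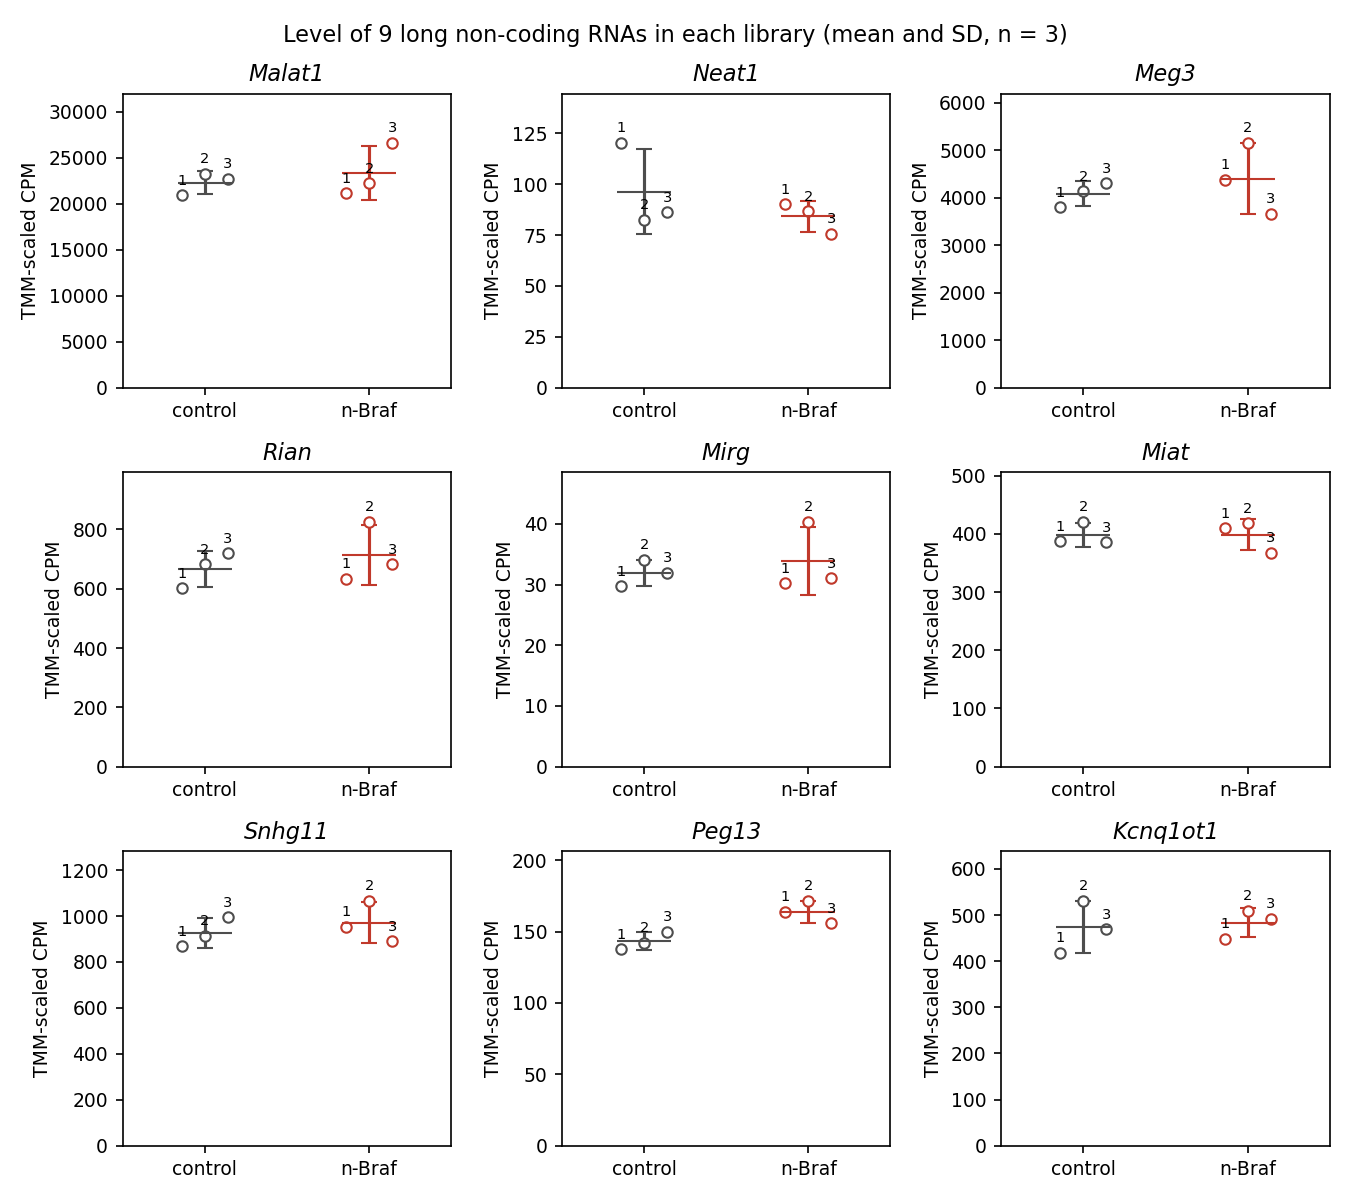
Level of each RNA in each library in TMM-scaled CPM, on axes that start at 0, with libraries numbered by replicate, the horizontal line at the group mean and bars of 1 SD (n = 3). Only in the Peg13 panel do the control points (138 to 150 CPM) and the n-Braf points (156 to 172 CPM) not overlap.

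None of the 9 RNAs passed the test of n-Braf against control, at an adjusted p of 0.05 in edgeR's quasi-likelihood test. Over the 20604 genes tested, 0% were called, so a count of 0 among the members is the background count. At an unadjusted p under 0.05, 1 of the 9 was called (Peg13), against 6.82% of all genes tested (1405 genes, 3.09% higher and 3.73% lower). The likelihood ratio test of edgeR called 71 genes, DESeq2 79, limma-voom 0 and the quasi-likelihood test without legacy settings 1, and none of the 9 was among them. The fold change was above 0 for 8 of the 9, with a median log2 value of 0.07, beside 49% of all genes above 0 and a median of -0.0042 over all genes. Without control 1, 6 of the 9 were above 0 and the median was 0.02. Without n-Braf 2, only Malat1 (0.10) and Peg13 (0.16) were above 0. The other members then lay between -0.22 (Neat1) and -0.0061 (Snhg11), so the lean above 0 depended on that library.

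**Figure D3:**
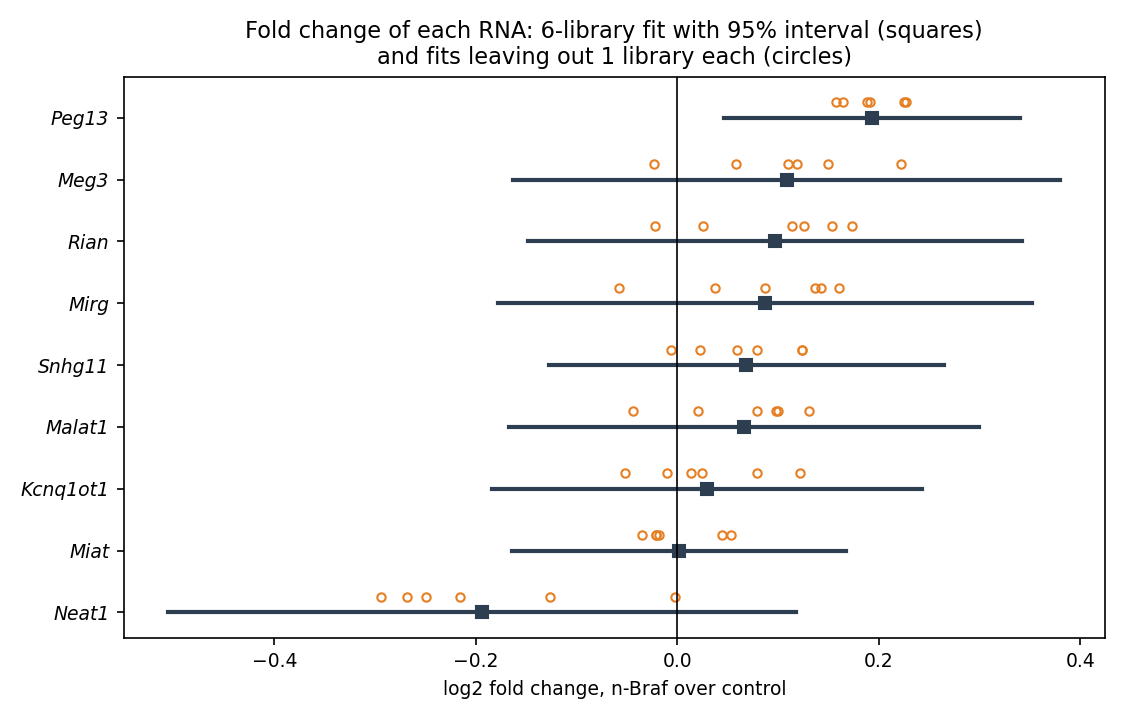
Log2 fold change of each RNA, n-Braf over control, from the 6 libraries (squares, with 95% intervals) and from fits that leave out 1 library each (circles). The interval of Peg13 runs from 0.05 to 0.34, the other 8 intervals include 0, and the circle of Neat1 without control 1 sits at 0.

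Among the nuclear body RNAs, Malat1 was read at 20905, 23259 and 22700 CPM in controls 1 to 3. In n-Braf 1 to 3 it was read at 21126, 22209 and 26653 CPM. The highest library was n-Braf 3 and n-Braf 1 and 2 lay within the range of the controls, so the groups overlapped. The log2 fold change was 0.07 (SE 0.10, 95% interval -0.17 to 0.30, adjusted p = 0.958, edgeR quasi-likelihood). It turned to -0.04 without n-Braf 3 and to -0.06 with age as a covariate. A short antisense gene model, Gm37376, lies wholly within the Malat1 exon and shares 453 bases with it. It was given 1924 estimated counts in control 1 and 992 in n-Braf 1, but 38.9 in control 3 and 0 in each of the other 3 libraries. These counts were at most 0.343% of the Malat1 count, and whether they are antisense reads or reads of Malat1 was not tested.

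Neat1, whose long isoform holds paraspeckles together, was the only member below 0. Its level was 120.5, 82.5 and 86.2 CPM in controls 1 to 3 and 90.3, 86.8 and 75.8 CPM in n-Braf 1 to 3. Control 1 alone was high, and the other 5 libraries lay between 75.8 and 90.3 CPM. The log2 fold change of -0.19 (SE 0.14, 95% interval -0.51 to 0.12, adjusted p = 0.859, edgeR quasi-likelihood) became -0.0023 without control 1. It was 0.03 with the choroid plexus markers as a covariate. The part of the 18S or choroid plexus signal of control 1 in its Neat1 level was not tested.

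The ratio of Neat1 to Malat1 counts, which needs no scaling between libraries, was 0.576%, 0.355% and 0.380% in controls 1 to 3. In n-Braf 1 to 3 it was 0.428%, 0.391% and 0.284%. Of 27 paraspeckle and speckle protein genes tested, 7 were above 0 and 20 below, and their median log2 ratio was -0.03 beside -0.0042 for all genes. None of the 27 had an unadjusted p under 0.05 or passed the adjusted threshold. The smallest p was that of Hnrnph3, an RNA-binding protein of paraspeckles, at 25.03 ± 1.62 CPM in control and 22.3 ± 0.996 in n-Braf (SD, n = 3 each, log2 fold change -0.17, adjusted p = 0.793 in edgeR's quasi-likelihood test). Of the 13 tested neighbours of Malat1 and Neat1 on chromosome 19, none passed, and Ltbp3, which encodes a protein that binds latent TGF-beta, had the smallest p. Its level was 32.6, 24.3 and 21.2 CPM in the controls and 18.9, 21.3 and 16.6 CPM in n-Braf, so the groups overlapped.

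Among the 3 host RNAs of the Dlk1-Dio3 domain on chromosome 12, Meg3, the first in the row, was read at 3796, 4138 and 4309 CPM in controls 1 to 3. In n-Braf 1 to 3 it was read at 4376, 5162 and 3661 CPM. The n-Braf libraries held both the highest and the lowest value of the 6, and the coefficient of variation was 17.1% in n-Braf against 6.40% in control. The log2 fold change was 0.11 (SE 0.12, 95% interval -0.16 to 0.38, adjusted p = 0.930, edgeR quasi-likelihood). It was -0.02 without n-Braf 2, 0.22 without n-Braf 3 and 0.38 with age as a covariate, where its unadjusted p was 0.0068 and its adjusted p 0.557.

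Rian, which carries many small nucleolar RNAs, was read at 601, 683 and 720 CPM in controls 1 to 3 and at 634, 827 and 683 CPM in n-Braf 1 to 3. Mirg, the host of the largest microRNA group, was read at 29.8, 34.1 and 31.9 CPM in controls and at 30.3, 40.4 and 31.1 CPM in n-Braf. Both were highest in n-Braf 2 and lowest in control 1, and their groups overlapped. The log2 fold changes were 0.10 (SE 0.11, adjusted p = 0.931) for Rian and 0.09 (SE 0.12, adjusted p = 0.952) for Mirg by edgeR's quasi-likelihood test. Without n-Braf 2 they were -0.02 and -0.06, and with age as a covariate 0.29 and 0.27 (adjusted p = 0.747 and 0.789 in edgeR).

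**Figure D4:**
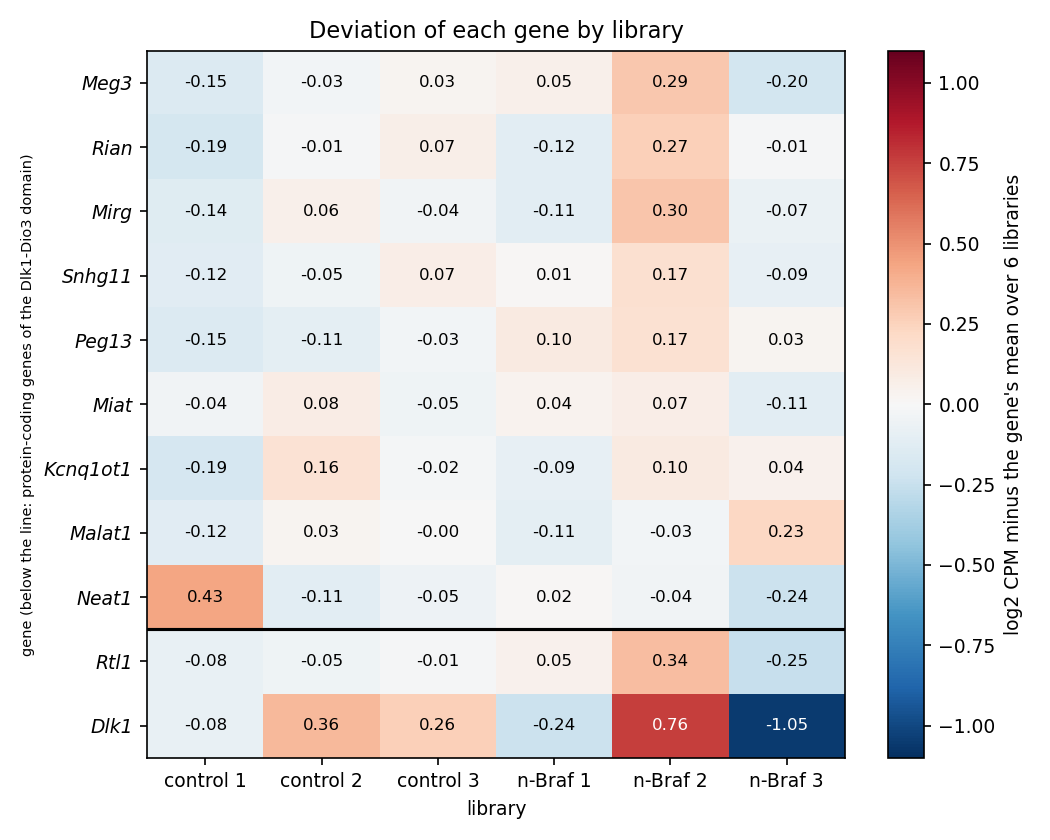
Deviation of each gene in each library from its own mean over the 6 libraries, in log2 CPM, with the 9 RNAs above the line and 2 protein-coding genes of the Dlk1-Dio3 domain below it. Meg3, Rian, Mirg and Rtl1 are 0.27 to 0.34 above their means in n-Braf 2, and Neat1 is 0.43 above its mean in control 1.

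Mirg and Rian kept a nearly constant proportion, and Rian and Meg3 less so in n-Braf. Mirg was 4.44% to 4.99% of the Rian count in all 6 libraries, with a coefficient of variation of 4.71%. Rian was 15.8%, 16.5% and 16.7% of the Meg3 count in controls 1 to 3 and 14.5%, 16.0% and 18.6% in n-Braf 1 to 3. The mean was 16.4% in each group, but the SD was 0.45 in control and 2.10 in n-Braf (n = 3 each). Rian and Mirg were the closest of the 36 pairs of members, measured by the root mean square difference of their deviations over the 6 libraries (0.063 log2 units), whereas Meg3 and Rian differed by 0.108. Meg3 and Snhg11, which lie on different chromosomes, came next at 0.073. Among 8953 genes, Mirg stood at place 26 in likeness to Rian, and Rian at place 18 in likeness to Mirg. In likeness to Meg3, Rian stood at place 319. Many genes outside the domain were thus closer.

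**Figure D5:**
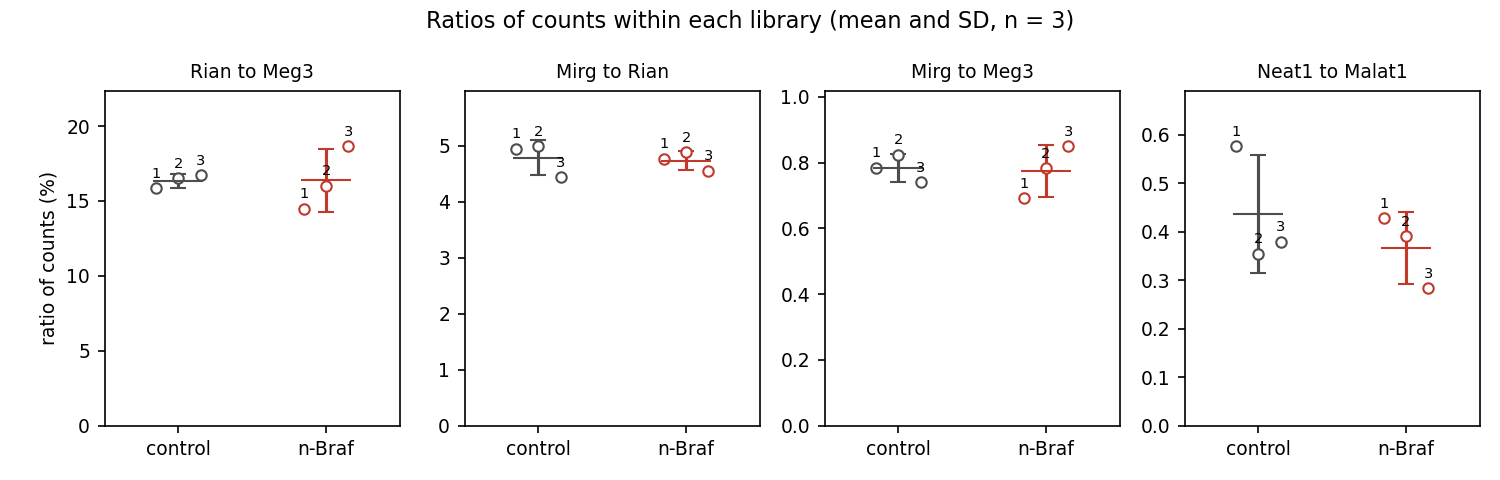
Ratios of counts within each library, in percent, on axes that start at 0, with libraries numbered by replicate, group means as lines and bars of 1 SD (n = 3). The ratio of Rian to Meg3 spans 15.8% to 16.7% in control and 14.5% to 18.6% in n-Braf, and the ratio of Neat1 to Malat1 is highest in control 1.

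By the same measure, the gene nearest to Meg3 among 8945 others was Rtl1 (0.046 log2 units, against a median of 0.186), and Foxo6, which encodes a forkhead transcription factor, came next at 0.047. Rtl1, a retrotransposon-derived protein-coding gene, lies between Meg3 and Rian on the opposite strand and is expressed from the paternal allele, with a maternal antisense transcript. Its level was 42.9, 43.7 and 44.9 CPM in controls and 46.9, 57.3 and 37.9 CPM in n-Braf. Its count was 1.04% to 1.13% of the Meg3 count in all 6 libraries. The strand setting of the counting is not given in the sources used here, so reads of Rtl1 and of transcripts antisense to it cannot be told apart.

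Other protein-coding genes in and beside the domain were less like Meg3 by this measure. Dlk1, which encodes a Notch-family ligand and is paternally expressed, was read at 6.08, 8.26 and 7.71 CPM in controls and 5.45, 10.9 and 3.06 CPM in n-Braf. It differed from Meg3 by 0.452 log2 units, a measure that grows with the size of the deviations. Both genes were highest in n-Braf 2 (deviation 0.757 for Dlk1 and 0.293 for Meg3). Both were lowest in n-Braf 3 (-1.05 and -0.203). Dio3, the enzyme that inactivates thyroid hormone, was read at 0.970, 1.76 and 1.64 CPM in controls and at 0.407, 0.692 and 0.170 CPM in n-Braf. The Dio3 groups did not overlap (11.5% of all genes tested do not overlap, 5.44% with n-Braf lower), and n-Braf was lower in all 3 libraries (log2 -1.76, SE 0.47, adjusted p = 0.543, edgeR quasi-likelihood). Begain, a postsynaptic density gene next to the domain, was 60.8 ± 0.95 CPM in control and 70.5 ± 6.98 CPM in n-Braf (SD, n = 3 each, adjusted p = 0.676 in the edgeR test). Of the 13 tested genes in and around the domain, 8 were above 0 and 5 below, and none passed the adjusted threshold. At an unadjusted p under 0.05 there were 4 of the 13 (30.8%, against 6.82% of all genes), namely Begain and Ppp2r5c higher and Dio3 and Slc25a47 lower. In 5 of the 13 the groups did not overlap, with Dync1h1 as the fifth, higher in n-Braf. Without control 1, 1 of the 13 had an unadjusted p under 0.05, against 4.59% of all genes in that fit.

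Among the other imprinted RNAs, Peg13 was the one member whose groups did not overlap. It is a single-exon RNA of 4725 bases (mm10 chr15:72805600-72810324, minus strand) inside an intron of Trappc9, a gene of a vesicle tethering complex. Its level was 138, 142 and 150 CPM in controls 1 to 3 and 164, 172 and 156 CPM in n-Braf 1 to 3. The lowest n-Braf library thus stood just above the highest control. The means were 143 ± 6.15 and 164 ± 7.91 CPM (SD, n = 3 each), a 1.14-fold difference with a 95% interval of 1.03 to 1.27. One member of 9 without overlap compares with 11.5% of all genes tested without overlap, and 6.09% without overlap and higher in n-Braf. The log2 fold change was 0.19 (SE 0.06), with an unadjusted p of 0.0153 and an adjusted p of 0.632 in edgeR's quasi-likelihood test, and in the authors' deposited table the adjusted p was 0.961.

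As a share of all counts without TMM scaling, Peg13 was 0.0153% in control 3 and 0.0152% in n-Braf 3, so on that scale the groups overlapped. With mitochondrial, ribosomal and 7S RNA genes left out of the total, both of these libraries were at 0.0201% and the groups were only just separate. Its log2 fold change lay between 0.13 and 0.30 in the 23 alternative settings, with 0.16 without control 1. These settings include the main fit read at an adjusted p of 0.1. Without controls 1 and 2 together it was 0.13, and with age as a covariate 0.30. Its unadjusted p rose above 0.05 without control 1 (0.0555), without n-Braf 2 (0.0564), with library size alone (0.0593) and without controls 1 and 2 together (0.255). It also did so with the choroid plexus markers (0.233) or the oligodendrocyte markers (0.112) as a covariate, all in edgeR's quasi-likelihood test. Its host gene Trappc9, which lies on the same strand and shares no exon base with it, was 55.0 ± 3.65 CPM in control and 56.7 ± 1.48 in n-Braf (SD, n = 3 each). Of 8 tested neighbours, including Trappc9, the potassium channel gene Kcnk9 and the Argonaute gene Ago2, 5 were above 0 and 3 below, and none had an unadjusted p under 0.05. Chrac1, a subunit of a chromatin remodelling complex, had the smallest p among them, at 8.39, 6.69 and 7.05 CPM in controls and 6.10, 5.88 and 6.26 CPM in n-Braf.

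Kcnq1ot1, the antisense RNA of the Kcnq1 domain on chromosome 7, was read at 419, 532 and 470 CPM in controls 1 to 3. In n-Braf 1 to 3 it was read at 448, 509 and 492 CPM. All 3 n-Braf values fell inside the range of the controls, and the log2 fold change was 0.03 (SE 0.09, 95% interval -0.18 to 0.24, adjusted p = 0.986, edgeR quasi-likelihood). Kcnq1, the potassium channel gene on the other strand, shares 121 exon bases with it and was read at 0.378 ± 0.069 CPM in control and 0.224 ± 0.16 in n-Braf (SD, n = 3 each).

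Of the 10 tested neighbours of Kcnq1ot1, 3 were above 0 and 7 below, and none passed. Cdkn1c, an inhibitor of cyclin-dependent kinases, was read at 9.73, 6.21 and 1.95 CPM in controls and 2.003, 1.57 and 0.817 CPM in n-Braf. Igf2, a growth factor gene, was read at 104, 51.5 and 19.8 CPM in controls and 36.1, 26.9 and 10.1 CPM in n-Braf. Controls 1 and 2, which were the libraries with high choroid plexus markers, held the highest levels of both genes. The part of choroid plexus RNA in them was not tested. Of 36 other imprinted genes tested, 14 were above 0 and 22 below (median log2 ratio -0.05), and none passed.

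Among the remaining neuronal RNAs, Miat was the steadiest member. It was read at 388, 421 and 385 CPM in controls 1 to 3 and at 410, 418 and 368 CPM in n-Braf 1 to 3, and its lowest and highest libraries differed 1.15-fold. Its log2 fold change was 0.0017 (SE 0.07, 95% interval -0.16 to 0.17, adjusted p = 0.998, edgeR quasi-likelihood). In that fit the interval ran from 0.892 to 1.12 of the control level, and it depends on the model. The log2 fold change was -0.12 (SE 0.08) with the oligodendrocyte markers as a covariate and 0.07 (SE 0.10) with age.

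Snhg11, a spliced RNA that GENCODE lists as protein-coding, was read at 868, 914 and 996 CPM in controls 1 to 3. In n-Braf 1 to 3 it was read at 953, 1067 and 891 CPM. The highest library was again n-Braf 2 and the lowest control 1. The log2 fold change was 0.07 (SE 0.09, 95% interval -0.13 to 0.26, adjusted p = 0.947, edgeR quasi-likelihood), and the groups overlapped. With age as a covariate it was 0.25, with an unadjusted p of 0.0251 and an adjusted p of 0.666 in edgeR. None of the 10 tested neighbours of Miat and Snhg11 had an unadjusted p under 0.05.

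Across the 9 RNAs, control 1 was the lowest library for Malat1, Rian, Mirg, Snhg11, Peg13 and Kcnq1ot1. The highest library was n-Braf 2 for Meg3, Rian, Mirg, Snhg11 and Peg13. Only Neat1 was highest in control 1. The genes nearest to the other members in their deviations over the 6 libraries were Ppp1r13b for Malat1, Tns1 for Neat1, Csrnp2 for Rian and Ptpdc1 for Mirg. For Miat, Snhg11, Peg13 and Kcnq1ot1 they were Capn5, Slc6a11, Atmin and Zfp384. With 6 libraries these likenesses are descriptions.

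Of 54 rows of other long non-coding RNA genes tested, 18 were above 0 and 36 below (median log2 ratio -0.11). None passed the adjusted threshold, and 9 had an unadjusted p under 0.05 (16.7%, against 6.82% of all genes), 8 of them lower. This list was chosen with earlier results of these data known, and it did not stand for the class. Over all 4142 long non-coding RNA genes of GENCODE tested, 2056 were above 0 and 2086 below (median log2 ratio -0.0022). In that class 3.40% had an unadjusted p under 0.05, 67 higher and 74 lower. Without control 1, 4 of the 54 had an unadjusted p under 0.05, all lower, against 4.59% of all genes, and the median was -0.07. Without controls 1 and 2 together there were 7, all lower, against 3.15% of all genes, and the median was -0.08. Oip5os1, a cytoplasmic RNA also known as Cyrano that controls the decay of a microRNA, was the higher one, at 466, 473 and 510 CPM in controls and 546, 548 and 540 CPM in n-Braf, groups that did not overlap. Snhg4, a host of small nucleolar RNAs, was read at 64.6, 31.0 and 39.5 CPM in controls and at 26.7, 31.1 and 29.4 CPM in n-Braf, with control 1 the highest of the 6.

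Levels of cell type markers are given beside these values. In tissue RNA fewer cells of a type and less RNA per cell cannot be told apart. Of 12 excitatory neuron markers, 11 were above 0 (median log2 ratio 0.17), with a summed level of 8530 to 9239 CPM in control and 9082 to 10444 CPM in n-Braf. Without control 1, 11 were above 0 (median 0.12), and without controls 1 and 2 together 9 were (median 0.12). Interneuron (10 of 12), astrocyte (9 of 12), neocortex (12 of 14) and CA1 markers (9 of 10) were also mostly above 0. Without controls 1 and 2 together these counts were 5, 6, 6 and 7. Of 12 microglia, 12 endothelial and 12 CA2 and CA3 markers, 6, 5 and 6 were above 0. Of 10 dentate granule cell markers, 2 were above 0 and 8 below (median -0.17). All 14 oligodendrocyte markers were below 0, with a median of -0.31. Their summed level was 2170, 1880 and 2429 CPM in controls 1 to 3 and 1589, 1621 and 2186 CPM in n-Braf 1 to 3, so the groups overlapped. All 14 stayed below 0 without control 1 (median -0.27), without n-Braf 3 (-0.46) and without controls 1 and 2 together (-0.45). With the oligodendrocyte markers as a covariate, the log2 fold changes were -0.07 for Meg3, -0.05 for Mirg and -0.12 for Miat, none past the threshold. Dentate granule cell markers summed to 516 to 612 CPM in control and to 433, 454 and 725 CPM in n-Braf 1 to 3. The library highest for these markers, n-Braf 3, was the highest for Malat1 and the lowest for Neat1, Meg3 and Miat. None of these marker lists had a gene that passed the adjusted threshold, and their part in the values of the 9 RNAs was not tested beyond these fits.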

How the data were processed

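Hippocampal RNA of 6 mice, 3 per genotype, was sequenced after library preparation with a SMART-Seq Stranded kit, per the labels' protocols. The deposited table holds estimated counts per gene (expected counts, 26.2% to 31.4% of them not whole). The submitters' processing notes name bcl2fastq 2.20, fastp 0.20.1, STAR, RSEM, edgeR 3.36.0 and mm10, while annotation and strand setting are not given in the sources used here. That table holds the authors' log2 fold changes, log2 CPM and p-values. Here the counts were rounded, filtered with filterByExpr (minimum count 10, leaving 20604 of 20620 genes), scaled by TMM and tested with edgeR 4.0.16 (quasi-likelihood, legacy settings, R 4.3.3) with Benjamini-Hochberg adjustment over all genes. On counts simulated from these libraries the test recovered nearly all of the largest changes and a minority of the smallest, and unchanged genes made up more of its calls than the threshold allows. DESeq2 1.42.0 and limma 3.58.1 were alternatives. Levels per kilobase use the union of exons in GENCODE M21, and likeness compares log2 CPM (prior count 2). The members and lists were chosen with earlier results of these data known. All members and tested neighbours could be named, and of other lists the genes with the smallest p, at most 3. Replicates are separate mice by their numbers in the labels.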

Additional observations from a re-analysis of the deposited data

How the results depend on the processing

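None of the 9 RNAs was called in any of the 23 alternative settings. Genes called over the table numbered 0 in the main fit, 79 by DESeq2 (29 higher, 50 lower), 71 by the edgeR likelihood ratio test, 3 with neocortex markers as a covariate, 3 without controls 1 and 2 together, 2 at an adjusted p of 0.1, 1 without legacy settings and 1 without mitochondrial, ribosomal and 7S RNA genes. Leaving out 1 library each gave 0 to 82 genes, and 82 (6 higher, 76 lower) without control 3. Peg13 kept its direction in 23 of 23 alternatives (log2 0.13 to 0.30, adjusted p 0.459 to 0.9999), and the other 8, none past the threshold, changed sign at least once. The alternative at an adjusted p of 0.1 reuses the main fit, so directions there could not differ. Without control 1 the log2 fold change was -0.018 for Miat and -0.052 for Kcnq1ot1, and without control 3 it was -0.021 for Miat. Without n-Braf 1 it was -0.021 for Miat. Without n-Braf 2 it was -0.023 for Meg3, -0.022 for Rian, -0.058 for Mirg, -0.035 for Miat, -0.0061 for Snhg11 and -0.010 for Kcnq1ot1. Without n-Braf 3 it was -0.044 for Malat1. Without controls 1 and 2 together it was -0.011 for Rian and -0.037 for Snhg11. Fitted with the choroid plexus markers, it was 0.034 for Neat1, -0.0063 for Rian and -0.032 for Snhg11, and with oligodendrocyte markers -0.074 for Meg3, -0.052 for Mirg, -0.117 for Miat and -0.029 for Kcnq1ot1. Age as a covariate gave -0.059 for Malat1. Miat was -0.017 with library size alone, -0.0036 at a mean CPM of at least 1, -0.012 with neocortex markers and -0.00092 without mitochondrial, ribosomal and 7S RNA genes. Over the fits that leave out 1 library, the highest value was 0.22 for Meg3, 0.17 for Rian, 0.16 for Mirg, 0.054 for Miat, 0.12 for Snhg11, 0.12 for Kcnq1ot1 and 0.13 for Malat1. The cause was not tested in these cases. With the last set of genes left out of the total, the summed share of the 9 RNAs was 3.92% in control and 4.02% in n-Braf. Correlations of deviations were 0.10, -0.046 and -0.014 for same-numbered libraries, within the range of -0.12 to 0.16 for differently numbered ones. With 3 libraries per group these values cannot decide whether replicate numbers mark pairs. A replicate block gave 0 genes called and 0.19 for Peg13 (adjusted p = 0.746 in edgeR). Groups of 3 mice, an age difference in part of the n-Braf group and libraries with RNA of neighbouring tissue limit every comparison. The alternatives without legacy settings, with the likelihood ratio test and without the 9 RNAs in the library size were chosen after seeing the data.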
